A study of Mus musculus with 8 samples.

Results

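The comparison described here sets liver RNA taken 1 day after TCPOBOP against liver RNA of day 0, both from mice in which the receptor MET had been deleted and the receptor EGFR was inhibited. It consists of 2 of the 8 arrays of the series, 1 array of day 1 and 1 array of day 0, read over all 45037 probe sets that are not array controls. The mice carried a floxed Met gene and a tamoxifen-inducible Cre (METfl/fl: TamCre+/+ in the protocol, Metff/ff:ERCre+/+ in the background label). Injections of 100 µl tamoxifen at 10 mg/ml, dissolved in corn oil and given on 5 days in a row, made the MET KO. Canertinib, an EGFR inhibitor, was mixed into the diet of these mice at an aimed intake of 80 mg/kg/day, beginning 1 day before TCPOBOP. The control arm were littermates of the same genotype that had been injected with corn oil alone, so floxed Met and Cre are present in every group. TCPOBOP was gavaged once at 3 mg/kg, at least 5 days after the tamoxifen course, and livers were collected on days 0, 1, 2 and 5 in both arms. Deletion was systemic, so it was not limited to hepatocytes.

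Each group was a pool of livers hybridised to 1 array. There was therefore no replicate, and no p-value is given for a difference between 2 arrays. The number, sex and age of the mice in a pool are not given, nor whether the day 0 mice were gavaged. Within the MET KO + EGFRi arm the day after TCPOBOP and the time on canertinib diet advanced together and cannot be told apart. Tamoxifen was given only to the MET KO + EGFRi arm. The Met probe sets gave signals of 1049 on day 1 and 1502 on day 0 in MET KO + EGFRi livers for the one with the higher mean, but the deleted exon is not given, so these values check nothing about the knockout.

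TCPOBOP is a ligand of CAR, the constitutive androstane receptor, a nuclear receptor of hepatocytes whose gene is Nr1i3. Activated CAR enters the nucleus and switches on genes for cytochrome P450 enzymes, conjugating enzymes and drug exporters. In mice it also drives hepatocytes into the cell cycle without prior loss of tissue. MET, the receptor of hepatocyte growth factor, and EGFR are the receptor tyrosine kinases best known for signalling to proliferating hepatocytes. The comparison asks how the liver responds to the CAR ligand in its first day when both receptors are out of action.

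Signals are the deposited linear MAS5 values in array units. A log2 change is that of the signal after 71 units were added, day 1 minus day 0, which understates the change of weak genes. A gene was read from 1 probe set, and 12112 of 18193 genes passed a filter on the mean signal. In what follows a gene rose or fell where its change was at least 2-fold on this scale. The median signal was 237.8 on the day 1 array and 239.3 on the day 0 array of MET KO + EGFRi livers, and 224.2 to 250.6 on the control arrays. The ratio of 3′ to 5′ actin signal, a measure of RNA integrity, was 1.57 on day 1 and 1.77 on day 0 in MET KO + EGFRi livers. The tissue label fitted the signals of hepatocyte genes, of which albumin, Alb, had 50765 on day 1 and 38805 on day 0. Of the 12 hepatocyte identity genes kept, 0 rose and 0 fell, with a median log2 change of 0.21.

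In MET KO + EGFRi livers 194 genes rose between day 0 and day 1, which is 1.6 percent of the genes read, and 213 fell, which is 1.76 percent. In control livers the same step raised 312 genes, 2.58 percent, and lowered 275, 2.27 percent. Counts of list members given below are to be read against these shares. The standard deviation of the log2 change across genes was 0.44 in MET KO + EGFRi livers and 0.50 in control livers. The middle 95 percent of genes in MET KO + EGFRi livers lay between -0.88 and 0.83. Of the genes that rose in MET KO + EGFRi livers 71 also rose in control livers, a share of 36.6 percent of the MET KO + EGFRi genes and 22.8 percent of the control genes. Of those that fell 38 fell in both arms, 17.8 percent of the MET KO + EGFRi genes and 13.8 percent of the control genes. A further 11 genes rose in MET KO + EGFRi livers and fell in control livers, and 9 did the reverse. The 2 first-day contrasts use no array in common, and across all genes their log2 changes had a Pearson correlation of 0.27 and a Spearman correlation of 0.19, as a description of these arrays.

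**Figure D1:**
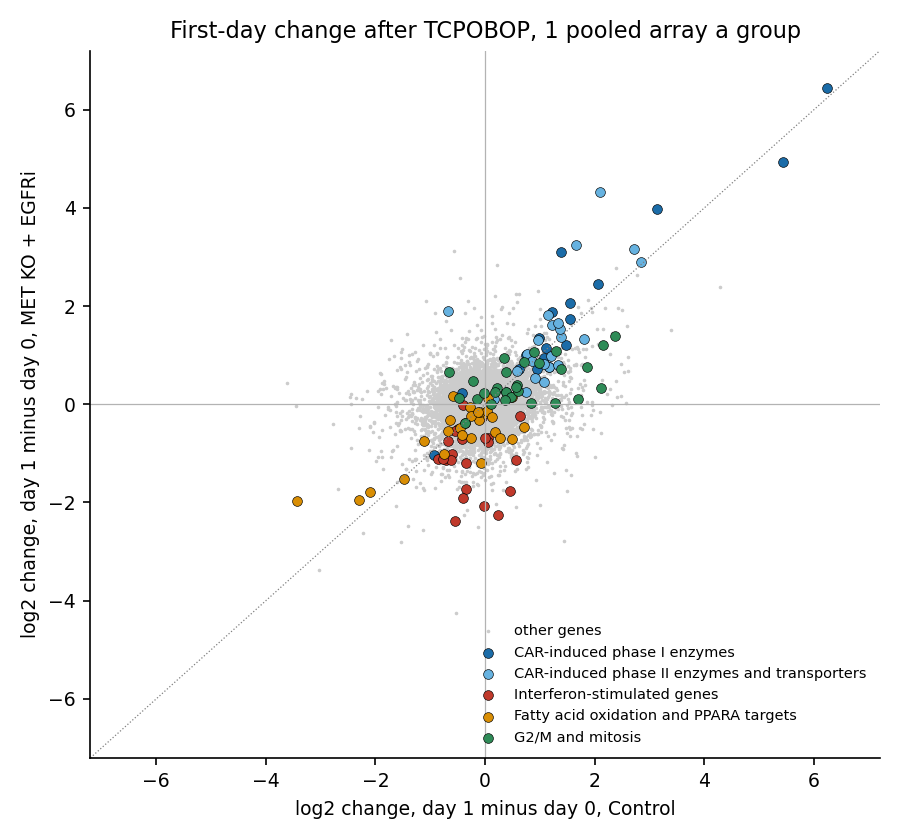
Log2 change from day 0 to day 1 in MET KO + EGFRi livers (vertical axis) against control livers (horizontal axis), 1 point per gene over 12112 genes, with members of 5 gene lists in colour and the line of equal change dotted. CAR targets lie high in both arms, while the interferon-stimulated genes lie below 0 in MET KO + EGFRi livers, with a median of -1.06 there and of -0.38 in control livers.

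Within the single array pair, the agreement of different probe sets of one gene gives a technical yardstick. For 4377 genes with at least 2 probe sets past the filter, the changes of the first and second probe set differed with a standard deviation of 0.49. Of the 111 of these genes whose first probe set changed at least 2-fold, 90 changed in the same direction on the second (81.1 percent) and 20 changed at least 2-fold on it too (18.0 percent). A change of about 2-fold on a single probe set is thus within reach of the technical spread, and the other probe sets are given below for many of the genes that have several.

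The drug-metabolising genes had the highest medians of the 38 lists read. Of the 28 cytochrome P450, carboxylesterase and related phase I genes listed as CAR targets, 19 passed the filter, 11 rose and 1 fell, with 18 above 0 and a median log2 change of 1.20. In control livers 12 of the same 19 rose and the median was 1.17. The phase II enzymes and transporters followed the same course, with 24 kept of 29, 13 raised, 0 lowered and all 24 above 0, at a median of 1.16. In control livers 15 of them rose, at a median of 1.15. The median over all genes was 0.02 in MET KO + EGFRi livers and -0.03 in control livers.

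Cyp2b10, the cytochrome P450 that serves as the standard readout of CAR in mouse liver, had signals of 356, 37324, 32027 and 48292 on days 0, 1, 2 and 5 in MET KO + EGFRi livers. In control livers it had 444, 38898, 33939 and 45578 on the same days. Its first-day log2 change was 6.45 in MET KO + EGFRi livers, a 87.5-fold increase, and 6.24 in control livers, and all 3 of its probe sets rose in MET KO + EGFRi livers by 6.45 to 6.94. The day 0 array was low and the 3 later arrays were high in both arms, with no overlap between them. Cyp2c55, a CAR-inducible P450 of the 2C family, had 462, 16179.7, 19763 and 21094 in MET KO + EGFRi livers and 788, 36847, 23337 and 33252 in control livers on days 0, 1, 2 and 5. Its log2 change was 4.93 in MET KO + EGFRi livers and 5.43 in control livers, and the day 1 signal was lower in MET KO + EGFRi livers than in control livers. Ces2a, a carboxylesterase that cleaves ester drugs, had 2241, 36272, 31999.9 and 51106 in MET KO + EGFRi livers and 5230.1, 46618, 37523 and 59664 in control livers. Its change was 3.97 and 3.14 in these arms.

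Cyp2c29, another CAR-inducible P450 of that family, had a larger fold in MET KO + EGFRi livers and a lower start. It had 45275 on day 1 and 5195 on day 0 in MET KO + EGFRi livers, a log2 change of 3.11, and 45834 on day 1 and 17518 on day 0 in control livers, a change of 1.38. The day 1 signals of the arms were close, while the day 0 signal was lower in MET KO + EGFRi livers. Cyp2c54 had 26433 on day 1 and 4800.5 on day 0 in MET KO + EGFRi livers, a change of 2.44 against 2.06 in control livers. Cyp1a2, a P450 that oxidises caffeine and arylamines, had 16277 on day 1 and 3846 on day 0 in MET KO + EGFRi livers, a change of 2.06, and 28787 on day 1 and 9748 on day 0 in control livers, a change of 1.56. Cyp2c38 was the member that fell, by 1.04 on the log2 scale.

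Among the conjugating enzymes, several glutathione transferases rose. Gstm3 had 3335, 30336, 25600 and 50459.9 on days 0, 1, 2 and 5 in MET KO + EGFRi livers and 6050.3, 40114, 34571 and 56624 in control livers, and its log2 change was 3.16 in MET KO + EGFRi livers and 2.71 in control livers. Its second probe set rose by 4.05 in MET KO + EGFRi livers. Gstt3 had 9120.5 on day 1 and 893 on day 0 in MET KO + EGFRi livers, a change of 3.25, and 10883 on day 1 and 3412 on day 0 in control livers, a change of 1.65. Gsta2, an alpha class transferase, moved in opposite directions in the arms, with 782 on day 1 and 158 on day 0 in MET KO + EGFRi livers and 1451 on day 1 and 2349 on day 0 in control livers. It rose by 1.90 in MET KO + EGFRi livers and had a change of -0.67 in control livers, and even on day 1 its MET KO + EGFRi signal lay below both control signals. Gsta4, which conjugates products of lipid peroxidation, rose by 1.82 in MET KO + EGFRi livers and by 1.15 in control livers.

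The exporter Abcc4, which pumps conjugates out of the hepatocyte into blood, had 124, 1384, 1190.5 and 1348 on days 0, 1, 2 and 5 in MET KO + EGFRi livers and 26.1, 629, 1282 and 1384 in control livers. Its log2 change was 2.90 in MET KO + EGFRi livers and 2.85 in control livers. Abcc3, a related basolateral exporter, had 6952 on day 1 and 2143 on day 0 in MET KO + EGFRi livers and 6013 on day 1 and 2342 on day 0 in control livers, changes of 1.67 and 1.33. The estrogen sulfotransferase Sult1e1 behaved unlike the others, with 29.7, 1932, 26.5 and 3524 on days 0, 1, 2 and 5 in MET KO + EGFRi livers and 23.8, 337, 344 and 476 in control livers. Days 1 and 5 were high and days 0 and 2 near background in MET KO + EGFRi livers, so the size of its first-day change, 4.31, depends on the added constant. It ran from 3.02 to 6.02 over the alternative settings.

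**Figure D2:**
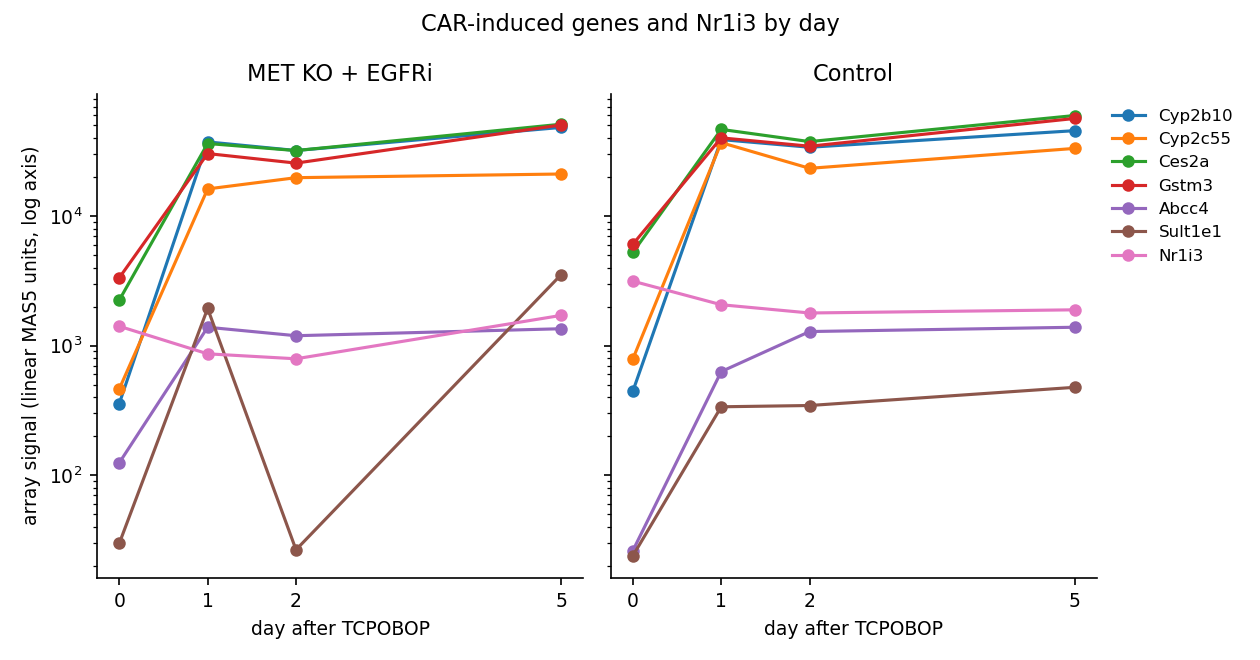
Array signal (log axis) of 6 CAR-induced genes and of Nr1i3 on days 0, 1, 2 and 5 after TCPOBOP, MET KO + EGFRi livers on the left and control livers on the right, 1 pooled array per point. The 6 CAR-induced genes are low on day 0 and high on day 1 in both arms, Nr1i3 is lower on day 1 than on day 0 in both, and Sult1e1 returns to its day 0 level on day 2 in MET KO + EGFRi livers.

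The receptor itself and its partners did not follow their targets. Of 23 nuclear receptor genes kept, 0 rose and 0 fell in MET KO + EGFRi livers, with a median log2 change of -0.01. Nr1i3 had 1408, 863, 790 and 1708 on days 0, 1, 2 and 5 in MET KO + EGFRi livers and 3141, 2065, 1784 and 1887 in control livers, first-day changes of -0.66 and -0.59. The MET KO + EGFRi signal was below the control signal on each of the 4 days. Alas1, the first enzyme of heme synthesis, on which P450 production depends, had 22130.4 on day 1 and 11518 on day 0 in MET KO + EGFRi livers and 28239.6 on day 1 and 13451 on day 0 in control livers, changes of 0.94 and 1.07. Of 11 heme genes kept, 0 rose and 1 fell in MET KO + EGFRi livers, the oxidase Ppox with -1.15, which a second probe set gave as -0.02. NRF2 targets overlapped with the CAR response. Of 24 kept 4 rose and 0 fell, namely Abcc4, the carbonyl reductase Cbr1 (1.32), the epoxide hydrolase Ephx1 (1.14) and the glutathione transferase Gstm1 (1.02). The 4 probe sets of Gstm1 gave 0.15 to 1.31.

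A test was possible only for the first-day change averaged over both arms, against the spread left in all 8 arrays once arm and day are fitted. That spread includes any difference in response between the arms. limma with arm and day as terms, and Benjamini-Hochberg adjustment over 12112 genes, called 14 genes higher, 0.116 percent, and 1 gene lower, 0.00826 percent. Without adjustment, 543 genes were higher and 380 lower at limma's p under 0.05. The call says nothing of the MET KO + EGFRi arm alone. The size of the list depended on the settings, with 4 to 25 genes called higher over 11 alternatives. Cyp2b10 had a mean log2 difference of 6.35 (standard error 0.18, limma adjusted p = 7.03e-06) and Cyp2c55 one of 5.18 (standard error 0.24, limma adjusted p = 1.47e-04). Ces2a followed with 3.56 and Gstm3 with 2.94, both with a limma adjusted p of 0.00334. These 4 genes were called under each of the 11 alternatives. Abcc4 had 2.87 (limma adjusted p = 0.0327) and was called in 7 alternatives, and Cyp2c54 had 2.25 (limma adjusted p = 0.0479) and was called in 6.

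Outside the drug-metabolising lists, Prom1, which encodes the membrane protein prominin 1, rose in both arms. It had 128, 1049, 492 and 1499 on days 0, 1, 2 and 5 in MET KO + EGFRi livers and 590.3, 2588, 2528 and 5019.6 in control livers, with changes of 2.50 and 2.01 and a limma adjusted p of 0.0217 for the average. Its MET KO + EGFRi signal was below the control signal on all 4 days. The nucleoporin gene Nup205 rose by 1.97 in MET KO + EGFRi livers and 1.93 in control livers, with a limma adjusted p of 0.0479 that 4 of 11 alternatives kept under the threshold. The 1 gene called lower was Tmem98, which encodes a membrane protein. It had 773, 66.4, 703 and 539 on days 0, 1, 2 and 5 in MET KO + EGFRi livers and 881, 134, 752 and 646 in control livers, changes of -2.62 and -2.22, with a limma adjusted p of 0.0086. Its day 1 array was the low one in each arm, and days 2 and 5 were again near day 0.

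Interferon-stimulated genes had the lowest median of the 38 lists. Interferons switch on antiviral genes, many of which carry a short repeat, the interferon-stimulated response element, in their promoters. Of 31 listed genes 24 passed the filter, 4 did not (Ifit2, Mx1, Mx2 and Cxcl10) and 3 had no probe set of their own. In MET KO + EGFRi livers 13 of the 24 fell, 0 rose and all 24 had a change below 0, with a median log2 change of -1.06. Over all genes read 1.76 percent fell there. In control livers 0 of the 24 fell or rose at least 2-fold and the median was -0.38. The changes differed in size between the arms, a difference that was not tested.

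The core of that element, GAAA and a second GAAA with 2 bases of any kind between them, was looked for on both strands in the 300 bases around the start of each gene, 250 before it and 50 after it, as RefSeq gives them for GRCm38.p6. The motif was chosen after the values were seen. A promoter was found for 10 of the 13 lowered genes, and 5 of them held the motif, 50 percent, as did 9 of 19 promoters of all kept members, 47.4 percent. Over 27025 genes with a promoter 3.99 percent held it. The promoters of Rtp4, Usp18 and Ifi27 were not among those found. The promoters of the 5 lowered genes with a match are printed 5′ to 3′ on the gene's strand, with the matching bases in capitals (TTTC pairs where the match lies on the other strand), because they hold the element through which the list's name is usually explained. RefSeq gives a second start for Gbp3, whose window (chr3:142560106-142560405) holds no match. Such a match describes the letters of the window and not a site in use.
Ifit1, chr19:34640639-34640938, plus strand: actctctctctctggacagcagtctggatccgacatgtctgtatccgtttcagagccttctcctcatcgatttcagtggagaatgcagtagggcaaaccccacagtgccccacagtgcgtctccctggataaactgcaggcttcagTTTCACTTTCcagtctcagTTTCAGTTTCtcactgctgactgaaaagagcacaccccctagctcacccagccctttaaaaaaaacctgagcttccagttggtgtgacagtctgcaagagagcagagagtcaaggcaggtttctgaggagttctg
Ifit3, chr19:34583279-34583578, plus strand: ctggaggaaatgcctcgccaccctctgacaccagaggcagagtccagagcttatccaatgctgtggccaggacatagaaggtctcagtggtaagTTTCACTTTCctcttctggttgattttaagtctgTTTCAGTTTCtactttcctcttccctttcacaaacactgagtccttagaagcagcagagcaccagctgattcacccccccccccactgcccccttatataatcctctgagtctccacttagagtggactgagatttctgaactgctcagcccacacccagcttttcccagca
Gbp3, chr3:142559794-142560093, plus strand: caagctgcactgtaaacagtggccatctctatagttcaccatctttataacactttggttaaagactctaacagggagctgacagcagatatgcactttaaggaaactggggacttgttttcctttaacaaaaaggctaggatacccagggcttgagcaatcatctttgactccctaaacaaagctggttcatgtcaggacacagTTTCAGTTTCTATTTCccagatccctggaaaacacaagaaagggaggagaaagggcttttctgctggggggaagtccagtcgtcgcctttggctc
Bst2, chr8:71537423-71537722, minus strand: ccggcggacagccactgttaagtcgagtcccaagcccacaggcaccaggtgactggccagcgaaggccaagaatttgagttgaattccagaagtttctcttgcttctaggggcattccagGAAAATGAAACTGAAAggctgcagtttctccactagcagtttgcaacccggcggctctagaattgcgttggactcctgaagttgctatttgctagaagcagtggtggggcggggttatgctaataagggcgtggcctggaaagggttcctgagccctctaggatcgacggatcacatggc
Igtp, chr11:58199306-58199605, plus strand: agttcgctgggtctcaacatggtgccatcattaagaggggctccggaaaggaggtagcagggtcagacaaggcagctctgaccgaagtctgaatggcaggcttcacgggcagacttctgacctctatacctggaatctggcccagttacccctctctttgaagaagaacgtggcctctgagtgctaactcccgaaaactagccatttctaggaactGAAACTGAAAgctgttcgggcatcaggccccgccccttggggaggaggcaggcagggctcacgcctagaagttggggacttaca

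Ifit1, an antiviral protein that binds foreign RNA, had signals of 2086, 344, 498 and 502 on days 0, 1, 2 and 5 in MET KO + EGFRi livers and 768, 503, 708 and 937 in control livers. Its first-day change was -2.38 in MET KO + EGFRi livers and -0.55 in control livers. The day 0 array of MET KO + EGFRi livers was the highest of the 8, and each of the 3 later arrays of that arm lay below the control array of its day. Rtp4, a chaperone of membrane receptors induced by interferon, had 4254, 837, 715 and 918 in MET KO + EGFRi livers and 834, 990.4, 1240.2 and 2224 in control livers, changes of -2.25 and 0.23, with -1.15 in MET KO + EGFRi livers as the mean of its probe sets. Gbp3, a guanylate-binding protein of cell-intrinsic immunity, had 1347, 266, 301 and 343 in MET KO + EGFRi livers and 249, 245, 245 and 439.6 in control livers, changes of -2.07 and -0.02. For both genes the day 0 array of MET KO + EGFRi livers stood above the other 7.

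Bst2, or tetherin, which holds budding viruses at the cell surface, had 2301, 564, 1525 and 1000 on days 0, 1, 2 and 5 in MET KO + EGFRi livers and 1870.1, 1399, 1639 and 1445 in control livers, changes of -1.90 and -0.40. Its day 1 signal in MET KO + EGFRi livers was the lowest of the 8. Usp18, which removes ISG15 from proteins and dampens interferon signalling, had 3498, 1008, 727 and 912 in MET KO + EGFRi livers and 1055, 812, 1193 and 1456 in control livers, changes of -1.73 and -0.35. The apoptosis factor gene Xaf1 fell by 1.77 on the log2 scale in MET KO + EGFRi livers on its stronger probe set and had a change of -0.51 on the other. The remaining members that fell were Ifit3 (-1.20), Igtp (-1.14), the immunoproteasome subunits Psmb8 (-1.13) and Psmb9 (-1.11), Ifi27 (-1.13), the transcription factor Irf7 (-1.12) and Oasl2 (-1.01). Gbp6, a guanylate-binding protein outside the list, fell by 2.48 in MET KO + EGFRi livers and by 1.41 in control livers.

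The decrease came with a high level on day 0, and both are read from the same day 0 array, a single pool. The median log2 level of the 24 genes was 10.79, 9.81, 9.63 and 9.91 on days 0, 1, 2 and 5 in MET KO + EGFRi livers, and 9.86, 9.67, 9.88 and 10.12 in control livers. Day 0 was the highest of the 4 MET KO + EGFRi arrays for 23 of the 24 genes. Since all 24 were lower on day 1, that count adds only the comparison with days 2 and 5. The MET KO + EGFRi signal was above the control signal for 22 of 24 genes on day 0 and for 16 of 24 on day 1. The summed signal of the 24 genes was 38188 on day 1 and 77606 on day 0 in MET KO + EGFRi livers, and 35961 and 39505 on those days in control livers.

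**Figure D3:**
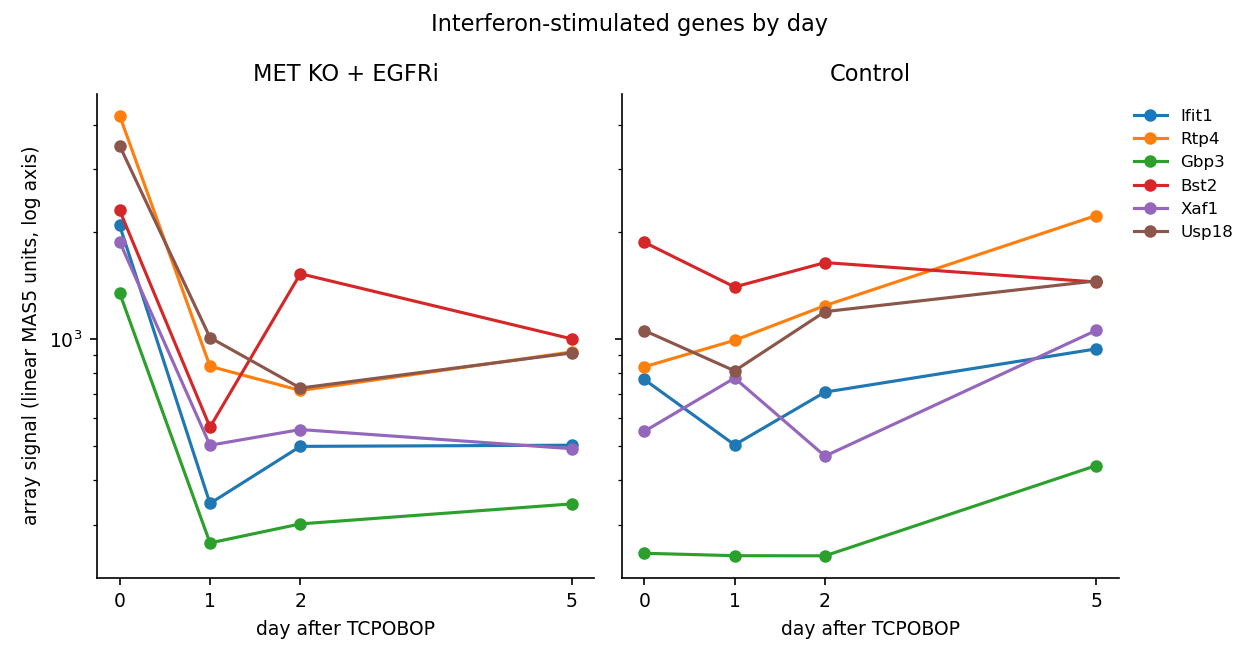
Array signal (log axis) of the 6 interferon-stimulated genes with the largest first-day decrease on days 0, 1, 2 and 5, MET KO + EGFRi livers on the left and control livers on the right, 1 pooled array per point. In MET KO + EGFRi livers each gene is highest on day 0, while in control livers 5 of the 6 are highest on day 5 and Bst2 on day 0.

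Cells other than hepatocytes also express interferon-stimulated genes, so their markers were read beside this list. Of 17 Kupffer cell and macrophage markers, 17 were kept, 0 rose and 0 fell in MET KO + EGFRi livers, at a median log2 change of -0.02, with a summed signal of 47348 on day 1 and 49198 on day 0. In control livers the same 17 had a median of -0.68, and the change was higher in MET KO + EGFRi livers for 16 of 17. Lymphocyte markers (8 of 18 kept) had a median of 0.12, with a summed signal of 6200.2 on day 1 and 5812 on day 0 in MET KO + EGFRi livers. Monocyte and neutrophil markers (14 of 22 kept) had a median of -0.06, with sums of 18677 and 21890.4 on these days. In these 3 lists 0 genes rose and 0 fell in MET KO + EGFRi livers on the probe set read. For the macrophage marker C1qb that probe set changed by 0.28, and the others past the filter by -0.35 and -1.22. Lyz1, a monocyte and neutrophil marker, changed by -0.25, with -1.40 and 0.10 on its others. Over all probe sets past the filter the medians were -0.05, 0.11 and -0.13 for macrophages, lymphocytes, and monocytes and neutrophils. The part of these cells in the interferon result was not tested. In pooled tissue RNA, fewer cells of a type and less RNA per cell cannot be told apart.

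Endothelial markers (16 of 21 kept) had a median of 0.04 in MET KO + EGFRi livers with 1 lowered, the TGF-beta co-receptor endoglin, Eng. Eng had 181 on day 1 and 681 on day 0 in MET KO + EGFRi livers, a change of -1.58, and -0.22 in control livers. Its second probe set gave -0.55 in MET KO + EGFRi livers. Stellate cell and fibroblast markers (14 of 18 kept) had 0 raised and 0 lowered at a median of 0.16. Only 3 cholangiocyte, 4 erythroid and 5 pancreas, adipose and muscle markers passed the filter, with medians of 0.05, -0.04 and -0.16. Among these the transferrin receptor Tfrc, counted among the erythroid markers and also a reference gene, rose by 1.02, which was 0.43 as the mean of its probe sets.

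Most cell cycle genes changed by less than 2-fold on day 1 in MET KO + EGFRi livers. Over all genes read 1.6 percent rose there, a smaller share than in either list below. Of 25 DNA replication genes kept of 40, 2 rose, 0 fell and 21 were above 0, with a median log2 change of 0.36. In control livers 6 of the 25 rose and the median was 0.58, and the change was lower in MET KO + EGFRi livers for 17 of 25. Of 29 mitosis genes kept of 44, 4 rose, 0 fell and 28 were above 0 in MET KO + EGFRi livers, with a median of 0.34. In control livers 8 of the 29 rose, at a median of 0.57. Both MET KO + EGFRi medians stand beside medians of 0.23 for the reference genes and 0.21 for the hepatocyte genes of that arm. The spread of 0.49 between probe sets is that of single genes and does not measure the spread of a list median. A further 13 replication and 14 mitosis genes lay below the filter.

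Rrm2, the subunit of ribonucleotide reductase that limits nucleotide supply in S phase, had 603, 1967, 899.5 and 2613 on days 0, 1, 2 and 5 in MET KO + EGFRi livers and 551, 3684, 3857 and 905 in control livers. Its first-day change was 1.60 in MET KO + EGFRi livers and 2.59 in control livers, and its 3 probe sets rose by 1.60 to 1.93 in MET KO + EGFRi livers. Days 1 and 5 were the higher arrays of MET KO + EGFRi livers, while days 1 and 2 were those of control livers. Mcm2, part of the replicative helicase, had 629.8 on day 1 and 184 on day 0 in MET KO + EGFRi livers and 1261 on day 1 and 195 on day 0 in control livers, changes of 1.46 and 2.32. Pcna, the sliding clamp of DNA polymerase, had 2461 on day 1 and 1272 on day 0 in MET KO + EGFRi livers, a change of 0.91, against 1.12 in control livers. The second probe set of Mcm2 gave 0.94 in MET KO + EGFRi livers. Mcm4 had a change of 0.80 in MET KO + EGFRi livers, where its second probe set gave 0.14, and 1.75 in control livers.

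Cdk1, the kinase that starts mitosis, had 88.5, 348, 383 and 449.9 on days 0, 1, 2 and 5 in MET KO + EGFRi livers and 95, 784, 1421 and 317 in control livers. It rose by 1.39 in MET KO + EGFRi livers and by 2.36 in control livers, and the control arm reached a higher signal on days 1 and 2. Its partner cyclin B2, Ccnb2, had 35.1, 174, 163 and 422 in MET KO + EGFRi livers and 40.7, 424, 2030.4 and 269 in control livers, changes of 1.21 and 2.15. Both genes are weak on day 0, and with the median of all values added in place of 71 their changes in MET KO + EGFRi livers were 0.84 for Cdk1 and 0.59 for Ccnb2. Prc1, a bundler of spindle microtubules, and Top2a, which untangles chromosomes, rose by 1.09 and 1.06 in MET KO + EGFRi livers. With the median added they had 0.79 and 0.66, so that none of these 4 mitosis genes then passed 2-fold. The highest changes over the alternative settings were 1.97 for Cdk1, 1.22 for Ccnb2, 1.30 for Prc1 and 1.45 for Top2a in MET KO + EGFRi livers. The control changes given here were not recomputed with the median added. Cdc20, which activates the anaphase-promoting complex, had 349 on day 1 and 261 on day 0 in MET KO + EGFRi livers, a change of 0.34, and 1469.9 on day 1 and 283 on day 0 in control livers, a change of 2.12. Mki67, the gene of the Ki-67 antigen, had 263 on day 1 and 114 on day 0 in MET KO + EGFRi livers and 447 on day 1 and 192 on day 0 in control livers, changes of 0.85 and 0.98. Foxm1, a transcription factor of mitotic genes, had changes of 0.47 and -0.21 in these arms.

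The pentamer CCAAT, bound by NF-Y and known from mitotic promoters, was present on either strand in 20 of the 24 promoters found for the 29 mitosis genes, 83.3 percent. It was present in all 4 promoters of the genes that rose and in 16 of 20 promoters of those under 2-fold, 80 percent. Over all genes 41.1 percent of promoters held it, so it marks the list and does not set the risers apart. Of 2 further motifs searched, CACGTG was in 4 of 15 promoters of clock genes (8.09 percent over all genes). TGCNCNC, N being any base, was in 12 of 15 of the metallothionein, zinc carrier and glucocorticoid target list (53.6 percent over all genes).

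**Figure D4:**
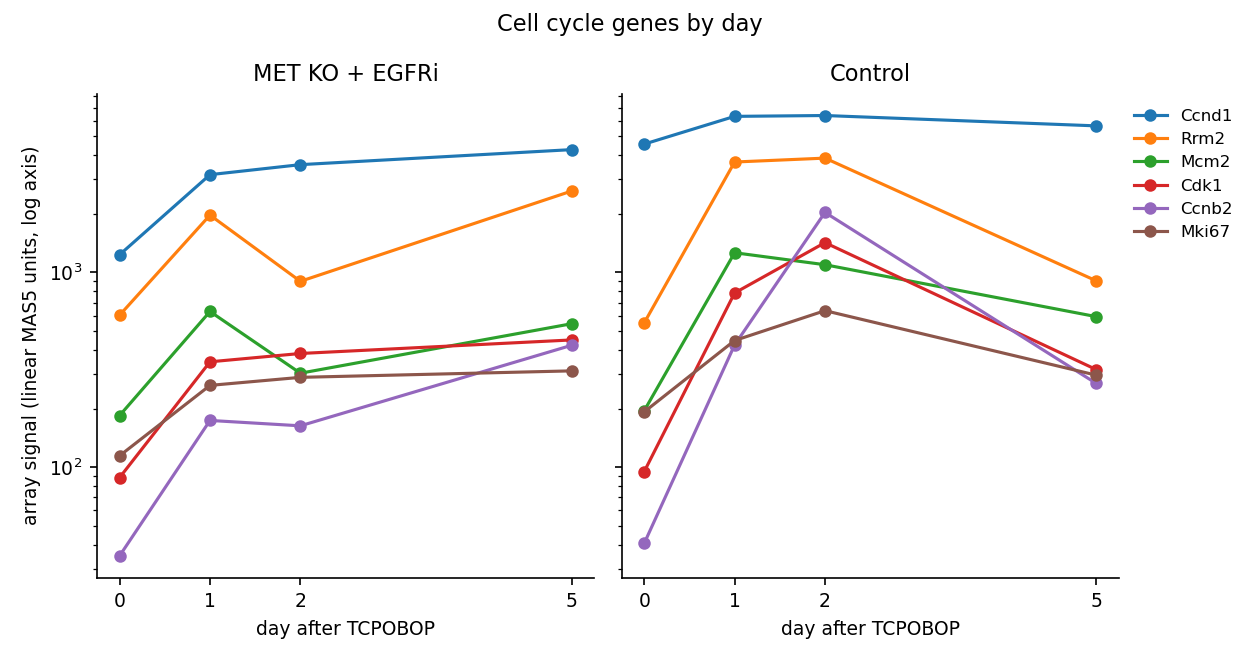
Array signal (log axis) of cell cycle genes on days 0, 1, 2 and 5, MET KO + EGFRi livers on the left and control livers on the right, 1 pooled array per point. Cdk1, Ccnb2, Rrm2 and Mcm2 are higher on day 1 than on day 0 in both arms and reach lower day 1 signals in MET KO + EGFRi livers.

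Among 17 G1/S regulators kept, 2 rose and 0 fell, at a median log2 change of 0.08. Ccnd1, cyclin D1, the growth factor-responsive cyclin that opens the cell cycle, had 1232, 3172, 3571 and 4264 on days 0, 1, 2 and 5 in MET KO + EGFRi livers and 4553, 6318, 6381 and 5647 in control livers. It rose by 1.32 in MET KO + EGFRi livers, on 3 of 3 probe sets by 1.23 to 1.32, and had a change of 0.47 in control livers. The day 0 signal of MET KO + EGFRi livers was the lowest of the 8, and their day 1 signal stayed below that of every control array. Gadd45b, a stress-inducible gene that TCPOBOP is known to induce, had 1463 on day 1 and 317 on day 0 in MET KO + EGFRi livers, a change of 1.98, against 1.69 in control livers. Its other probe sets gave changes down to 0.32. Myc had 254 on day 1 and 159 on day 0 in MET KO + EGFRi livers, a change of 0.50, and 303 on day 1 and 36.4 on day 0 in control livers, a change of 1.80.

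The CDK inhibitor and p53 target list had 0 raised and 2 lowered of 16 kept. Gadd45g, a growth arrest gene, had 3532, 447, 378 and 235 on days 0, 1, 2 and 5 in MET KO + EGFRi livers and 164, 10.8, 88 and 272 in control livers, and fell by 2.80 on the log2 scale in MET KO + EGFRi livers and by 1.53 in control livers. The day 0 array of MET KO + EGFRi livers was far above the other 7. Trp53inp1, a p53-induced nuclear protein, had 1834 on day 1 and 4439 on day 0 in MET KO + EGFRi livers, a change of -1.24, and -0.16 in control livers. Its second probe set gave -0.73 in MET KO + EGFRi livers. The CDK inhibitor Cdkn1a had 723 on day 1 and 1132 on day 0 in MET KO + EGFRi livers, a change of -0.60, and -0.10 in control livers. Averaged over all of its probe sets, weak ones included, the Cdkn1a change was -1.53 in MET KO + EGFRi livers.

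Receptors, ligands and activators of the MET and EGFR pathways, 19 kept of 24, had 0 raised and 0 lowered. Egfr had 4714 on day 1 and 4694 on day 0 in MET KO + EGFRi livers, a change of 0.01, on the probe set with the highest mean over the 8 arrays. The other 5 past the filter had changes of -0.37 to -0.17. Hgf, the MET ligand, had 481 on day 1 and 318 on day 0 in MET KO + EGFRi livers and 224 on day 1 and 508 on day 0 in control livers, changes of 0.51 and -0.97. Genes that respond to ERK, the kinase cascade below both receptors, had 1 raised and 2 lowered of 24 kept, with a median of -0.18. Junb had 1711, 592, 175 and 299 on days 0, 1, 2 and 5 in MET KO + EGFRi livers and 264, 224, 165 and 394 in control livers, and fell by 1.43 in MET KO + EGFRi livers. The phosphatase Dusp1 had 428 on day 1 and 1045 on day 0 in MET KO + EGFRi livers, a change of -1.16 against 0.03 in control livers. Fosl1, a FOS family member, had 611 on day 1 and 265 on day 0 in MET KO + EGFRi livers and 78.1 on day 1 and 306 on day 0 in control livers, changes of 1.02 and -1.34.

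The acute phase proteins, which hepatocytes secrete in inflammation, mostly changed by less than 2-fold. Of 25 acute phase genes kept, 0 rose and 1 fell in MET KO + EGFRi livers, at a median log2 change of 0.16, against 0.27 in control livers. The serum amyloid Saa1 had 49441 on day 1 and 42623 on day 0 in MET KO + EGFRi livers and 2612 on day 1 and 1516 on day 0 in control livers, changes of 0.21 and 0.76. Saa3, a serum amyloid made also outside hepatocytes, was the one that fell, with 3902 on day 1 and 9260.5 on day 0 in MET KO + EGFRi livers and 635 on day 1 and 1388 on day 0 in control livers, changes of -1.23 and -1.05. Of 21 genes of IL-6, STAT3 and C/EBP signalling, 1 fell and 0 rose. This was Cebpd, a C/EBP factor of the acute phase, with a change of -1.02 in MET KO + EGFRi livers and -1.12 in control livers. Its second probe set, below the filter, gave -0.26 in MET KO + EGFRi livers, and the mean of both was -0.64. Socs3, the feedback inhibitor of IL-6 signalling, had 2454, 1194, 693 and 918 on days 0, 1, 2 and 5 in MET KO + EGFRi livers and 322, 615, 640.1 and 582 in control livers. Its first-day change of -0.998 in MET KO + EGFRi livers lay just short of 2-fold, against 0.80 in control livers. The other Socs3 probe sets past the filter gave -1.05 and -1.14, which is past 2-fold. The kinase gene Pim3 of the same list had -0.85 on the probe set read, and -2.10 and -0.75 on its others. Of the 44 probe sets of this list past the filter, 4 fell and 0 rose in MET KO + EGFRi livers, so its count of genes depends on the probe set.

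Of 18 genes of metallothioneins, zinc carriers and glucocorticoid targets, 0 rose and 2 fell in MET KO + EGFRi livers, namely Dusp1 and the zinc exporter Slc30a1 (-1.13, with 0.02 on a second probe set). The metallothionein Mt2 had 31833 on day 1 and 35172 on day 0 in MET KO + EGFRi livers and 978 on day 1 and 2679.6 on day 0 in control livers, changes of -0.14 and -1.39. Mt1 had 42558 on day 1 and 39104 on day 0 in MET KO + EGFRi livers on its stronger probe set, which can bind related RNAs, a change of 0.12. Its weaker probe set changed by -1.82, so the probe sets disagree on Mt1.

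Fatty acid oxidation genes were mostly lower on day 1 in MET KO + EGFRi livers. PPARA is the nuclear receptor that turns on fatty acid oxidation. Of 27 fatty acid oxidation and PPARA target genes kept of 31, 6 fell, 0 rose and 3 were above 0, at a median log2 change of -0.48. In control livers 5 fell and the median was -0.25. The shares that fell over all genes were 1.76 percent in MET KO + EGFRi livers and 2.27 percent in control livers. The summed signal of the 27 genes was 189229, 142178, 220529 and 154491 on days 0, 1, 2 and 5 in MET KO + EGFRi livers. It was thus above day 0 on day 2 and below it again on day 5. In control livers the sums were 216445, 188635, 208023 and 204050 on these days. The thioesterases Acot1, Acot2 and Acot3 fell, with changes of -1.78, -1.95 and -1.97 in MET KO + EGFRi livers and -2.11, -2.30 and -3.43 in control livers. Cyp4a14, a fatty acid hydroxylase and PPARA target, had 11469, 3941, 9895 and 5104 on days 0, 1, 2 and 5 in MET KO + EGFRi livers and 12919, 4606, 5838 and 4244 in control livers, first-day changes of -1.52 and -1.47. Day 1 was the lowest array of MET KO + EGFRi livers. Angptl4, an inhibitor of lipoprotein lipase, fell by 1.20 in MET KO + EGFRi livers, with a change of -0.08 in control livers, and the peroxisomal gene Pex11a had 2249 on day 1 and 4581 on day 0 in MET KO + EGFRi livers. Averaged over all probe sets of the gene, the change in MET KO + EGFRi livers was -0.56 for Acot2 and -0.67 for Angptl4. Ppara itself had 1601 on day 1 and 3007 on day 0 in MET KO + EGFRi livers, a change of -0.88 against -0.69 in control livers.

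Of 23 genes of glucose production and amino acid breakdown, 2 fell and 0 rose in MET KO + EGFRi livers, at a median of -0.30. Igfbp1, a binding protein of insulin-like growth factors that insulin represses, had 14038, 2327, 2367 and 836 on days 0, 1, 2 and 5 in MET KO + EGFRi livers and 838, 345, 467 and 726 in control livers. It fell by 2.56 in MET KO + EGFRi livers and by 1.13 in control livers, and its day 0 signal in MET KO + EGFRi livers was the highest of the 8 arrays. Foxo1, a transcription factor of gluconeogenesis, had 998 on day 1 and 2925 on day 0 in MET KO + EGFRi livers, a change of -1.49, and -0.07 in control livers. Its 3 probe sets past the filter had changes of -1.49 to -0.50 in MET KO + EGFRi livers. The fourth, below the filter, had 0.32, and the mean over all 4 was -0.63. The gluconeogenic enzymes Pck1 and G6pc had changes of -0.91 and -0.82 in MET KO + EGFRi livers and -0.57 and -0.55 in control livers.

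The largest decrease of all named genes was that of Ppp1r3c, which targets protein phosphatase 1 to glycogen. It had 2805, 80, 331 and 303 on days 0, 1, 2 and 5 in MET KO + EGFRi livers and 1079, 728, 350.4 and 788 in control livers, changes of -4.25 and -0.53. Its second probe set fell by 1.90 in MET KO + EGFRi livers. Rdh9, a retinol dehydrogenase family member, fell in both arms, with 316 on day 1 and 3922 on day 0 in MET KO + EGFRi livers and 424 on day 1 and 3954 on day 0 in control livers, changes of -3.37 and -3.02. Serpina12, known as vaspin, went apart in the arms, with 50.1 on day 1 and 768 on day 0 in MET KO + EGFRi livers and 925 on day 1 and 296 on day 0 in control livers. Its change was -2.79 in MET KO + EGFRi livers and 1.44 in control livers, on 1 probe set.

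Among the sterol genes 1 passed 2-fold in MET KO + EGFRi livers. Of 19 cholesterol genes kept, 1 rose, 0 fell and 18 were above 0 in MET KO + EGFRi livers, at a median log2 change of 0.31, beside 0.23 for the reference genes. In control livers 8 of the 19 rose, at a median of 0.72, beside 0.31 for the reference genes. Msmo1, a sterol methyl oxidase, had 3094, 6888, 1360.3 and 5983 on days 0, 1, 2 and 5 in MET KO + EGFRi livers and 4203, 12234, 7993 and 8968 in control livers, changes of 1.14 and 1.53. Day 2 was the low array of MET KO + EGFRi livers, below day 0. Sqle, squalene epoxidase, had 7316 on day 1 and 4135 on day 0 in MET KO + EGFRi livers, a change of 0.81 against 1.43 in control livers.

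Of 27 fatty acid synthesis and storage genes, 1 rose and 0 fell in MET KO + EGFRi livers, at a median of -0.02, against -0.22 in control livers. The riser was Insig2 (1.13), which retains the sterol sensor in the endoplasmic reticulum, and its other probe sets gave 0.59 and 0.77. Fatty acid synthase, Fasn, had 4717 on day 1 and 2629 on day 0 in MET KO + EGFRi livers and 10093 on day 1 and 12335 on day 0 in control livers, changes of 0.83 and -0.29. The desaturase Scd1 had 10692 on day 1 and 21249 on day 0 in MET KO + EGFRi livers, a change of -0.99 against -0.08 in control livers.

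Of 25 bile acid genes kept, 2 rose (Abcc4 and Abcc3) and 1 fell in MET KO + EGFRi livers. The one that fell was Cyp7b1, an oxysterol hydroxylase of the acidic bile acid pathway, with 7234, 2832, 2962 and 1940.4 on days 0, 1, 2 and 5 in MET KO + EGFRi livers and 1194, 3447, 2276 and 1682 in control livers. Its change was -1.33 in MET KO + EGFRi livers, on 2 of 2 probe sets past the filter, and 1.48 in control livers, and it was -0.84 in MET KO + EGFRi livers once weaker probe sets were averaged in. Cyp7a1, the rate-limiting enzyme of bile acid synthesis, had 2023 on day 1 and 1895 on day 0 in MET KO + EGFRi livers, a change of 0.09 against -0.34 in control livers. Of 22 growth hormone-dependent, urinary protein and sex-biased genes, 2 rose and 3 fell. The female-biased P450 Cyp3a44 had 210.3, 1409, 1552 and 960.3 in MET KO + EGFRi livers and 217, 5544, 1155 and 205 in control livers, changes of 2.40 and 4.29. The elongase Elovl3 rose by 1.12 in MET KO + EGFRi livers and by 1.79 in control livers. The urinary protein gene Mup3, whose probe set may also capture close relatives, had 3077 on day 1 and 13264 on day 0 in MET KO + EGFRi livers and 30231 on day 1 and 20468 on day 0 in control livers, changes of -2.08 and 0.56, with -0.99 in MET KO + EGFRi livers as the mean of its probe sets. Acot3 and Cyp7b1 were the other members that fell.

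Zonation markers, which distinguish hepatocytes near the central vein from those near the portal tract, went both ways. Of 14 pericentral genes 3 rose, namely Gstm3, Cyp1a2 and Lect2 (1.40 in MET KO + EGFRi livers and 1.37 in control livers), and the glutamate carrier Slc1a2 fell (-1.12 and -1.38). The second Slc1a2 probe set past the filter gave -0.45 in MET KO + EGFRi livers. Glutamine synthetase, Glul, the strictest pericentral marker, had 5268 on day 1 and 9062 on day 0 in MET KO + EGFRi livers, a change of -0.77 against -0.16 in control livers. Of 14 periportal genes 0 rose and 1 fell, the amino acid carrier Slc38a2 with -1.19 in MET KO + EGFRi livers and 0.13 in control livers. The mean over all Slc38a2 probe sets was -0.52 in MET KO + EGFRi livers. The periportal P450 Cyp2f2 had 3117 on day 1 and 5912 on day 0 in MET KO + EGFRi livers and 25618 on day 1 and 23226 on day 0 in control livers, changes of -0.91 and 0.14.

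Few genes of growth, protein handling and the clock passed 2-fold. Of 25 ribosome biogenesis and polyamine genes 2 rose, spermidine synthase Srm (1.10) and the ribosome assembly factor Bysl (1.01, with 0.11 on a second probe set), at a median of 0.22 against 0.01 in control livers. Of 17 serine and one-carbon genes 1 rose, the mitochondrial folate enzyme Mthfd2 (1.09 in MET KO + EGFRi livers and 0.04 in control livers). Of 27 genes of the unfolded protein response 0 rose and 0 fell in MET KO + EGFRi livers, at a median of 0.19, while 4 rose in control livers at a median of 0.48. Their MET KO + EGFRi signal was above the control signal for 23 of 27 on day 0 and for 10 of 27 on day 1. Of 31 proteasome genes 0 rose and 0 fell in MET KO + EGFRi livers, at a median of 0.16 there and 0.53 in control livers. The change was lower in MET KO + EGFRi livers for 27 of 31, from a higher start. Signals were above control for 28 of 31 on day 0 and for 13 of 31 on day 1. The median log2 level was 11.51 on day 0 and 11.69 on day 1 in MET KO + EGFRi livers, and 11.12 and 11.81 in control livers. Of 17 clock genes 0 rose and 0 fell in MET KO + EGFRi livers, while 1 rose and 3 fell in control livers. Of 16 reference genes often used as constant 2 rose in MET KO + EGFRi livers, Tfrc and the RNA polymerase II gene Polr2a (1.02, with 0.11 on a second probe set), at a median of 0.23 against 0.31 in control livers.

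**Figure D5:**
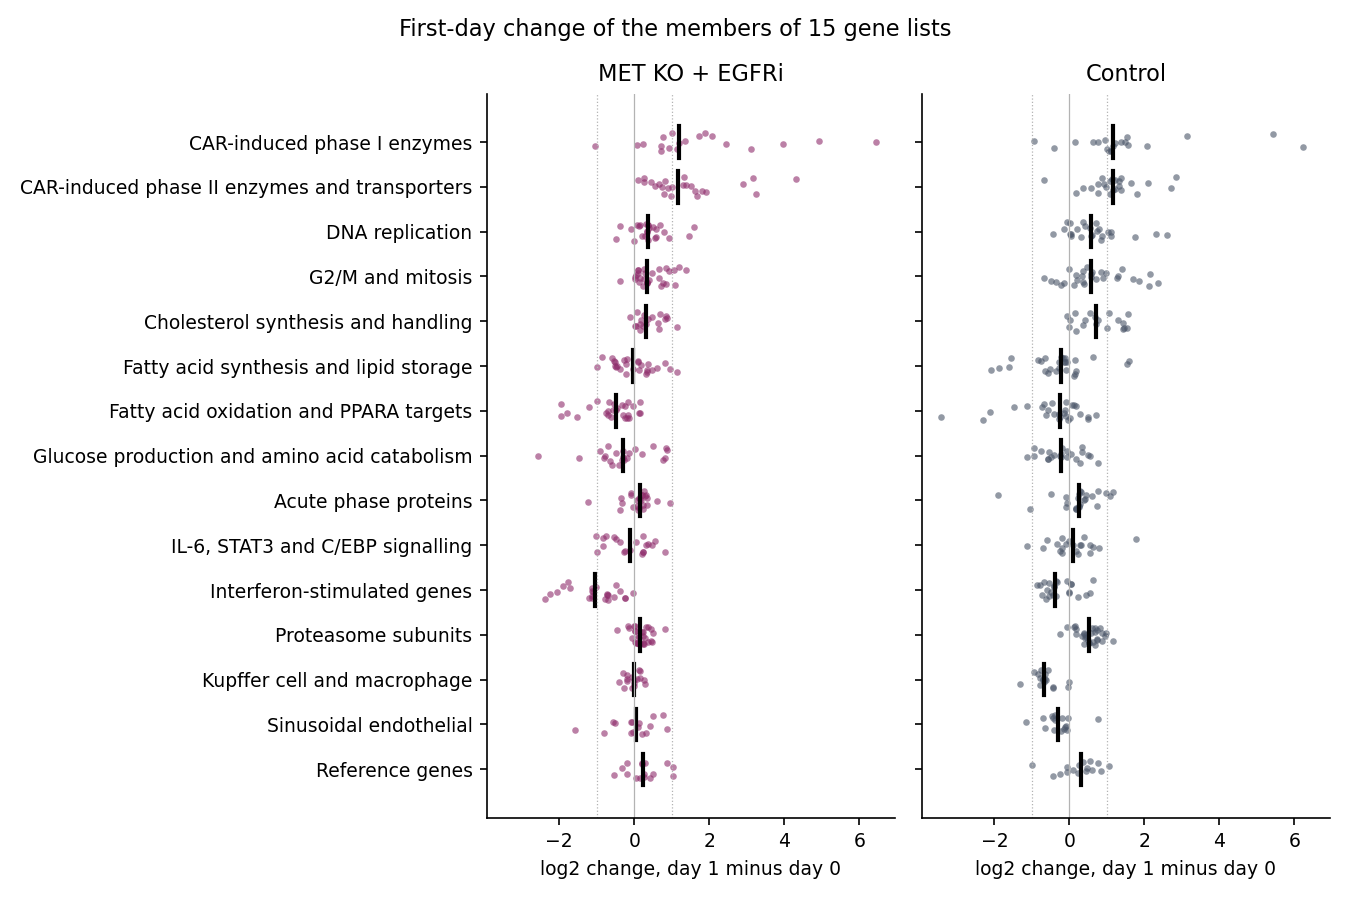
Log2 change from day 0 to day 1 of the members of 15 gene lists, 1 point per gene past the filter, with the list median, in MET KO + EGFRi livers and in control livers. The CAR lists lie highest in both arms with medians of 1.20 and 1.16 in MET KO + EGFRi livers, and the interferon-stimulated genes lie lowest there with a median of -1.06.

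Several of the largest single-gene changes rest on 1 probe set. Ercc1, a DNA repair endonuclease subunit, had 2601 on day 1 and 236 on day 0 in MET KO + EGFRi livers, a change of 3.12, and 546 on day 1 and 837 on day 0 in control livers. Its other 3 probe sets, below the filter, changed by 0.03 to 0.15, so this rise is not shared by them. Rab3a, a vesicle GTPase, had 7939 on day 1 and 1047 on day 0 in MET KO + EGFRi livers, a change of 2.84, and 12167 on day 1 and 10518 on day 0 in control livers. Its other probe set, below the filter, changed by -1.84 and so runs the other way. Smpd2, a neutral sphingomyelinase, rose in both arms, with 2742 on day 1 and 383 on day 0 in MET KO + EGFRi livers and 1258 on day 1 and 123 on day 0 in control livers, changes of 2.63 and 2.78. Eogt, a glycosyltransferase, had 728 on day 1 and 63.5 on day 0 in MET KO + EGFRi livers, a change of 2.57 against -0.45 in control livers. Its other 2 probe sets, below the filter, changed by -0.51 and 0.27 in MET KO + EGFRi livers. Among the lowered genes Zfp518b had 1032, 125, 973 and 766 and Mettl27 635, 101, 374 and 611 on days 0, 1, 2 and 5 in MET KO + EGFRi livers. For both the day 1 array alone was low.

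The genes whose first-day change in MET KO + EGFRi livers stood furthest above that in control livers were, besides Eogt, Rab3a and Ercc1, the genes Rusc1, Mroh2a, Tarbp2, Dnajc6 and Cep126. For Rusc1, Mroh2a and Dnajc6 the control arm moved on the probe set read. Mroh2a had 1834 on day 1 and 1889.9 on day 0 in MET KO + EGFRi livers and 87.8 on day 1 and 1668 on day 0 in control livers, changes of -0.04 and -3.45. Rusc1 had changes of 0.43 in MET KO + EGFRi livers and -3.61 in control livers, and Dnajc6 of 0.21 and -2.44. The second Rusc1 probe set past the filter had 562 on day 1 and 603 on day 0 in control livers, so it does not share that decrease. The 8 furthest below control were Serpina12, Ppp1r3c, Tab1, Shh, Cyp7b1, Inhbb, C2cd4b and Igbp1. No difference between the arms in a single gene was tested, since each rests on 4 arrays without a replicate.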

How the data were processed

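The deposited signals are intensity values, 1 for each probe set on each of 8 Affymetrix mouse arrays. They were made with MAS5 per the submitters' processing notes, from 6 µg of pooled liver RNA per the labels' protocols. The deposited signals are linear, and on every array their mean is 500 once 2 percent at each end are trimmed. Detection calls and the software version are not given in the sources used here.

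From these, 64 control probe sets of 45101 were left out, and log2 was taken of the signal plus 71, the lower quartile over the arrays. Where a gene had several probe sets, the one with the highest mean stood for it, and genes were kept from a mean log2 signal of 8.24, the median. Gene names are those of the platform annotation. Changes of at least 2-fold were counted without a test. All 8 arrays entered an additive fit of arm plus day in limma (3.58.1, R 4.3.3) with a variance trend and 3 residual degrees of freedom, and a Benjamini-Hochberg adjusted p under 0.05 was called. Its p-values rest on the arm-by-day spread of single pools, which includes any difference in response between the arms. With no replicate pools and no separate animals in the labels, neither spread is measured. The code was tested on simulated data. Values were tabulated in Python (3.11.15).

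Named genes were the 15 largest increases and the 15 largest decreases in MET KO + EGFRi livers among genes with at least 1 of the 2 signals in the top 25 percent of its array, the 8 largest differences between arms in each direction, up to 6 members of each list with the largest change, a short set of key genes, and genes called by limma. Saa1, Cyp7a1, Cdc20, Cyp2c38 and the smaller decreases of the interferon list lie outside this rule and were chosen after their values were seen. The members, lists, tests and alternatives were chosen with earlier results of these data known. A probe set with the suffix _s_at or _x_at may also capture related transcripts, which holds for Cyp2b10, Gstm1, Gstm3, Gadd45b, Rrm2, Mcm2, Prc1, Rdh9, Mup3, Acot3, Angptl4, Mt1, Lyz1, Ercc1, Rab3a and Rusc1. Promoter sequences came from RefSeq (GRCm38.p6). The number of arrays limits the precision.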

Additional observations from a re-analysis of the deposited data

Results flagged for a closer look

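For 16 named genes the first-day change was at least 1.5-fold in one direction in MET KO + EGFRi livers and at least 1.5-fold in the other in control livers. Each rests on 4 arrays, and the difference was not tested. In log2 units, MET KO + EGFRi minus control, the change was lower by the following amounts in MET KO + EGFRi livers. Serpina12 had -4.23, the kinase-binding protein gene Tab1 -3.26, the hedgehog ligand gene Shh -3.07, Cyp7b1 -2.81, the activin subunit gene Inhbb -2.73, C2cd4b -2.70 and Igbp1 -2.65. The nuclear receptor gene Nr0b2, a bile acid-responsive repressor, had -1.86 and Socs3 -1.80. The 2 Cyp7b1 and 3 Socs3 probe sets past the filter were lower on day 1 in MET KO + EGFRi livers, while a weaker Cyp7b1 probe set changed by 0.16. Other probe sets below the filter changed by 0.48 for Tab1, 0.10 for Shh, 0.21 for Igbp1 and -0.12 for Serpina12 in these livers. The other 3 Igbp1 probe sets past the filter changed by -0.40, -0.15 and 0.25 in MET KO + EGFRi livers. The second Inhbb probe set past the filter had 162 on day 1 and 253 on day 0 in control livers. It changed by -0.55 in MET KO + EGFRi livers, so it was lower on day 1 in both arms.

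The change was higher in MET KO + EGFRi livers for Tarbp2 (3.18), Cep126 (2.64), Gsta2 (2.57), Fosl1 (2.36), the clock gene Cry2 (2.18), the RNA polymerase II gene Polr2a (2.02) and the clock-controlled protease gene Usp2 (1.74). For Polr2a the second probe set gave a change of 0.11 in MET KO + EGFRi livers, and for Usp2 it gave -0.03. Weaker probe sets below the filter changed by -0.48 for Cep126, -0.01 for Fosl1 and 0.75 for Tarbp2 in these livers.

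Among probe sets without a gene in the platform annotation, 2 rose at least 4-fold in MET KO + EGFRi livers and stood above all 4 control arrays on day 1. One of them had 906.7 on day 1 and 170.5 on day 0, a log2 change of 2.02. The other had 673.2 on day 1 and 100.5 on day 0, a change of 2.12. Over the 9160 probe sets without a gene 208 rose and 245 fell by 2-fold or more.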

How the results depend on the processing

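The number of genes past 2-fold followed the pseudocount, the filter and the choice of probe set. In MET KO + EGFRi livers 99 rose and 96 fell with the median of all values as pseudocount, against 192 and 127 in control livers. Without a filter the counts were 412 and 438 in MET KO + EGFRi livers and 540 and 610 in control livers. With a filter at the upper quartile they were 107 and 91 in MET KO + EGFRi livers and 188 and 102 in control livers. With the mean of a gene's probe sets they were 121 and 123 in MET KO + EGFRi livers and 195 and 174 in control livers. The other 4 alternatives kept all 4 counts within 1.5 times. The limma calls averaged over arms numbered 7 higher without a pseudocount, 4 higher and 0 lower without a filter, 25 higher and 2 lower with the upper quartile filter, and 8 higher and 2 lower with the mean of probe sets. They numbered 5 higher and 2 lower without the arrays of day 5, and 7 higher and 2 lower without a variance trend. Where limma called 0 genes lower, without a filter, 554 were lower at an unadjusted p under 0.05.

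Over 8 alternatives the MET KO + EGFRi median of 11 of the 38 lists changed sign at least once. That of the acute phase proteins reached -0.03, and that of the 3 cholangiocyte genes reached -0.43. The median of the interferon list ran from -1.14 to -0.85 and that of the CAR phase I list from 1.09 to 1.27. No scaling moved the median of all genes by over 0.1. No paired analysis was possible because each group has 1 array and the labels give no replicate numbers. Signals near the added constant, such as those of Sult1e1 on day 0, set no firm fold.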
